A study of Arabidopsis thaliana with 36 samples.

Results

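Coronatine is a toxin of Pseudomonas syringae that mimics the jasmonate hormone, and 8 genes of the Arabidopsis thaliana route through which it is known to act were described here, of 33557 genes in the deposited tables. They are given by name, and were chosen with earlier results of these data known: the receptor gene COI1 (AT2G39940), the transcription factor genes MYC2 (AT1G32640), MYC3 (AT5G46760) and MYC4 (AT4G17880), the NAC factor genes ANAC019 (AT1G52890), ANAC055 (AT3G15500) and ANAC072 (AT4G27410), and the methyltransferase gene BSMT1 (AT3G11480). All 8 were measured in every group. The samples were leaves of 4-week-old plants infiltrated with the strain Pst DC3000 of P. syringae pv. tomato, 100000 c.f.u. in each ml, and taken 1, 2 or 3 days post infiltration (dpi), about 30 leaves to a sample. The accession Col-0, the accession Sei-0 and their reciprocal F1 hybrids were compared on each day, where Fsc had Sei-0 and Fcs had Col-0 as the mother. These 4 genotypes on 3 days made 12 groups of 3 mRNA-seq libraries, 36 in all, and every group was infected. No uninfected leaves and no coronatine-deficient bacteria were among the libraries used here, so that a difference from uninfected leaves or an effect of coronatine itself was not measured.

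In the textbook view, coronatine joins the F-box protein COI1 to JAZ repressors, which are then degraded, and the bHLH factors MYC2, MYC3 and MYC4 are set free. MYC2 is known to bind the G-box, CACGTG, in the promoters of the NAC genes. The NAC factors are described as repressors of ICS1, the main gene of salicylic acid (SA) synthesis, and as activators of BSMT1, whose product turns SA into its volatile methyl ester. Guard cells are a known site of this route, because coronatine reopens closed stomata, and SA is the hormone of defence against biotrophic bacteria that jasmonate signalling opposes.

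Levels were FPKM, fragments per kilobase of exon scaled to the mapped fragments of a library, which allows for gene length. The authors pooled the 3 libraries of a group into 1 value, so each level below is their pooled value, with no spread between libraries, and no difference was tested. Totals of FPKM over all genes lay between 935587 and 1192353 in the 12 groups. The hybrids were set against the mid-parent value, the mean of Col-0 and Sei-0 on the same day, and a ratio (computed on FPKM + 1) of at least 2 in either direction was the threshold for calling a difference. The tables of the 3 days were normalized separately, so that levels set across days carry that limit. In whole leaves, fewer cells of a type and less RNA per cell cannot be told apart.

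COI1, the receptor, was nearly level. At 1 dpi its FPKM was 22.3 (Col-0), 21.8 (Sei-0), 18.6 (Fsc) and 21.5 (Fcs). On day 2 it was 24.5, 24.7, 22.1 and 23 in the same order, and at 3 dpi 23.2, 22.3, 20.8 and 20.9. Both hybrids lay below both parents on each day, by small amounts: the highest of the 12 FPKM values was 1.33 times the lowest, with nothing added. The locus under which COI1 was deposited (TAIR10 chromosome 2, 16666023 to 16675748) was shared with a second gene, AT2G39930, and these libraries are not stated to keep the strand, so that a part of its level could belong to the neighbour. None of the other 7 genes shared its locus. The 6 relatives of COI1 that perceive auxin (TIR1 and the AFB genes) had no member past 2-fold in both hybrids on any day.

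MYC2, the master regulator among the bHLH factors, was lower in both hybrids than in both parents on every day, by less than 2-fold in at least 1 hybrid each time. Its FPKM at 1 dpi was 297 (Col-0), 283 (Sei-0), 168 (Fsc) and 144 (Fcs). On day 2 the values were 236, 262, 181 and 152, and at 3 dpi 264, 297, 176 and 193. The parents and the hybrids formed separate ranges throughout, with Col-0 and Sei-0 at most 1.13 times apart. Against the mid-parent value, MYC2 was 1.72 times lower in Fsc and 2.01 times lower in Fcs at 1 dpi, and 1.59 and 1.45 times lower at 3 dpi.

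MYC4, which acts redundantly with MYC2 and MYC3, was the only gene of the 8 past the threshold in both hybrids on all 3 days. Its FPKM was 29 in Col-0, 22.0 in Sei-0 and 9.84 in both Fsc and Fcs at 1 dpi. The 2 dpi values were 32.2, 20.8, 12.2 and 9.77, and at 3 dpi 29.2, 18.3, 8.80 and 10.1. The hybrids were thus low from the first day and stayed so, at 2.44 times below the mid-parent value in each at 1 dpi, 2.09 and 2.55 times at 2 dpi and 2.52 and 2.23 times at 3 dpi. Sei-0 was also below Col-0 on each day, by 1.31, 1.53 and 1.56 times.

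MYC3 differed little. Its FPKM was 66.1 (Col-0), 89.4 (Sei-0), 71.0 (Fsc) and 72.1 (Fcs) on day 1, where the hybrids lay between the parents. The 2 dpi values were 94.0, 93.3, 79.5 and 84.0, and at 3 dpi 101, 94.1, 69.3 and 75.6, with both hybrids below both parents. The 3 dpi values were 1.40 times below the mid-parent value in Fsc and 1.29 times in Fcs. MYC2 made up from 61.9 to 75.7% of the summed FPKM of the 3 MYC genes in the 12 groups. This sum was lower in the hybrids too: 392 (Col-0), 395 (Sei-0), 249 (Fsc) and 226 (Fcs) on day 1, and 395, 410, 254 and 278 at 3 dpi.

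**Figure D1:**
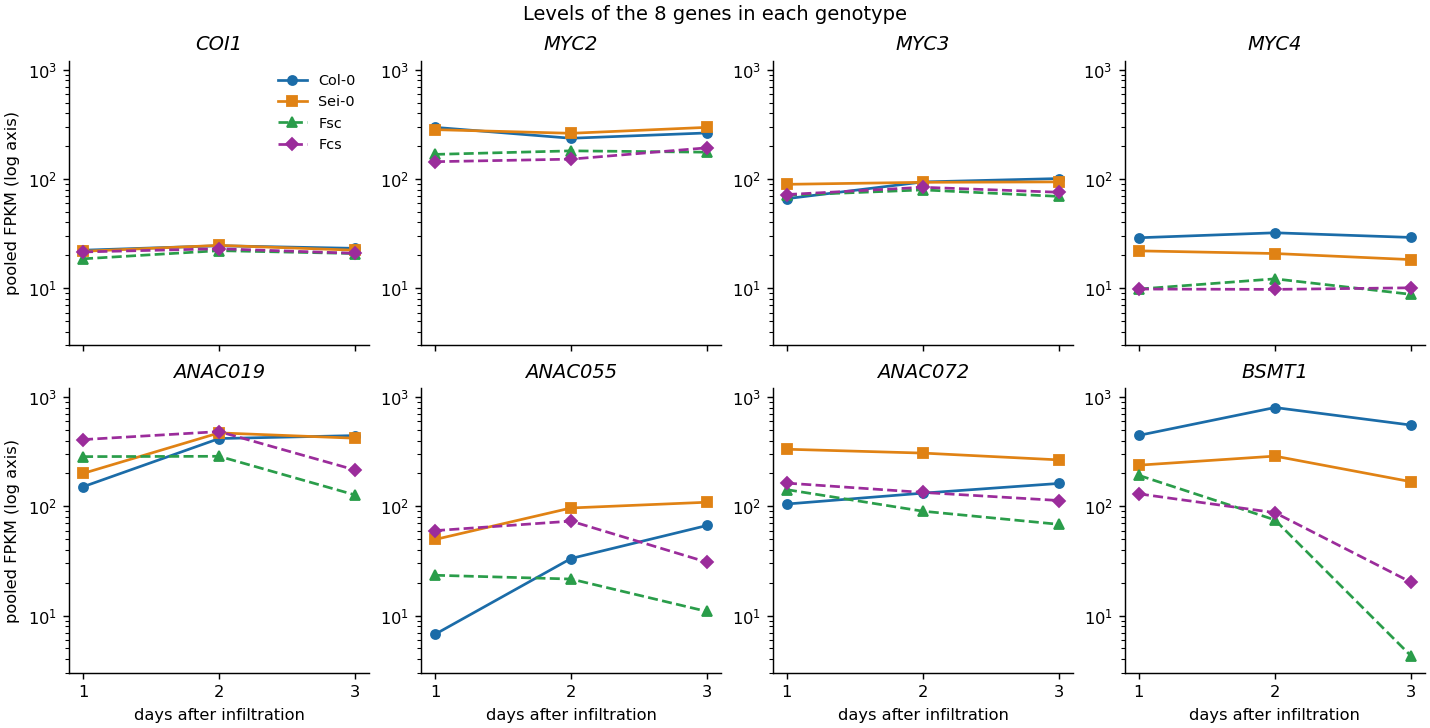
Pooled FPKM (log axis) of each of the 8 genes against the day after infiltration, with 1 line for each genotype and 1 point for each group of 3 libraries, without error bars because the deposited values are pooled. The MYC2 and MYC4 lines of the hybrids run below those of the parents on all days, while the NAC lines cross each other, and BSMT1 drops to 4.28 in Fsc and 20.2 in Fcs at 3 dpi.

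The FPKM of the NAC genes was higher at 3 than at 1 dpi in Col-0, and for ANAC019 and ANAC055 also in Sei-0. In both hybrids the NAC genes were lower at 3 than at 1 dpi, which held for no MYC gene. The rise in Col-0 was not particular to them: MYC3 and ANAC072 each gained 1.53 times there. Because the NAC genes are the described targets of MYC2, the G-boxes before their starts are shown first. In the 250 bases before the RefSeq gene start, only ANAC019 of the 8 genes held a G-box (CACGTG, the same on both strands), a word found in 6.57% of the 26686 promoters of that length. The related word CATGTG, read on both strands, was in none of the 8 and in 11.2% of all. In a longer window of 1000 bases, chosen after the first result was seen, ANAC019 held 4 G-boxes, ANAC072 held 2 and ANAC055 held 1, against none in COI1, the MYC genes or BSMT1, and 14.9% of all promoters had at least 1. The sites are given from the RefSeq TAIR10.1 sequence of Col-0, 5′ to 3′ on the strand of the gene, with the G-box in capitals and its distance before the gene start in the name:
ANAC019, 126 bases before the start, chr1:19698591-19698620, minus strand: atctaactgacaCACGTGtcagaattcaaa
ANAC019, 756 bases before the start, chr1:19699221-19699250, minus strand: gtcaacaaaaaaCACGTGaaataaaatatc
ANAC019, 955 bases before the start, chr1:19699420-19699449, minus strand: tagacacgtggaCACGTGtcgtcatgatgt
ANAC055, 339 bases before the start, chr3:5234106-5234135, plus strand: atcattcacttaCACGTGttttttcttctt
ANAC072, 425 bases before the start, chr4:13709578-13709607, minus strand: caactggcttaaCACGTGtcgataaacttt
ANAC072, 707 bases before the start, chr4:13709860-13709889, minus strand: taactctcccaaCACGTGtacaattcacac
The remaining site of ANAC019, 963 bases before its start, lies within the third of these stretches, in lower case. A match in the letters is not a bound site, and the Sei-0 sequence at these places was not read.

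ANAC019 was the gene of the 8 whose difference turned over in both hybrids between the days. At 1 dpi its FPKM was 151 (Col-0), 200 (Sei-0), 285 (Fsc) and 408 (Fcs), so that both hybrids lay above both parents. At 2 dpi the values were 417, 470, 287 and 483, with Fsc lowest and Fcs close to Sei-0. At 3 dpi they were 444, 420, 127 and 215, and both hybrids lay below both parents. On the log2 scale the difference from the mid-parent value went from 0.70 in Fsc and 1.21 in Fcs at 1 dpi to -1.75 and -1.0 at 3 dpi. The Fcs value at 3 dpi stood at the threshold, 2.00 times below the mid-parent value. From 1 to 3 dpi the FPKM + 1 went up 2.92 times in Col-0 and 2.1 times in Sei-0, and went down 2.23 times in Fsc and 1.89 times in Fcs.

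ANAC055 was the least abundant of the 3 NAC genes, with 2.6 to 13.7% of their summed FPKM in the 12 groups, and the one of them that varied most, its highest value being 16.1 times its lowest. At 1 dpi its FPKM was 6.74 (Col-0), 49.7 (Sei-0), 23.4 (Fsc) and 59.9 (Fcs). By 2 dpi the values were 33.3, 96.6, 21.6 and 73.2, and at 3 dpi 66.8, 109, 10.9 and 30.8. Sei-0 exceeded Col-0 by 6.55, 2.84 and 1.62 times on the 3 days, and Fcs exceeded Fsc by 2.50, 3.28 and 2.68 times. By 3 dpi ANAC055 was 7.49 times below the mid-parent value in Fsc and 2.80 times in Fcs, while at 1 dpi Fcs had been 2.08 times above it. Col-0 gained 8.76 times from 1 to 3 dpi, and Fsc lost 2.06 times.

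ANAC072, also called RD26 and known for its induction by abscisic acid and drought, was set apart by its level in Sei-0. Its FPKM was 105 (Col-0), 333 (Sei-0), 142 (Fsc) and 163 (Fcs) on day 1. On day 2 it was 132, 307, 90.2 and 134, and at 3 dpi 162, 266, 68.4 and 113. Sei-0 was the highest group on every day, at 3.13, 2.31 and 1.64 times Col-0. The hybrids lay between the parents at 1 dpi and below both at 3 dpi, where Fsc was 3.10 times and Fcs 1.89 times below the mid-parent value. Fcs therefore fell short of the threshold that the other NAC genes passed.

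Summed over the 3 NAC genes, FPKM was 263 (Col-0), 582 (Sei-0), 451 (Fsc) and 632 (Fcs) on day 1, and 673, 796, 207 and 359 at 3 dpi. All 3 NAC genes were higher in Fcs than in Fsc on every day, by 1.43, 1.68 and 1.68 times for ANAC019 and by 1.15, 1.48 and 1.64 times for ANAC072. Their 4 relatives of the ATAF group, ATAF1, ATAF2, ANAC032 and ANAC102, had none past 2-fold in both hybrids on any day. At 1 dpi, however, both hybrids were above both parents for ATAF2 and ANAC102, as for ANAC019. In Fsc and Fcs, ATAF2 was 1.6 and 2.03 times the mid-parent value and ANAC102 1.82 and 2.11 times. ATAF1 and ANAC032 were below that value in Fsc and above it in Fcs.

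BSMT1, the methyltransferase at the end of the route, showed the widest range of the 8 genes, with its highest value 188 times its lowest. Its FPKM at 1 dpi was 446 (Col-0), 238 (Sei-0), 192 (Fsc) and 130 (Fcs). On day 2 it was 802, 288, 75.1 and 87.5, and at 3 dpi 554, 168, 4.28 and 20.2. Col-0 was highest and Sei-0 second on each day, and both hybrids were below both parents on each day, by an amount that widened. Against the mid-parent value BSMT1 was 1.78 times lower in Fsc and 2.61 times lower in Fcs at 1 dpi, 7.17 and 6.17 times lower at 2 dpi, and 68.6 and 17.1 times lower at 3 dpi. Ordered by the mean log2 ratio of both hybrids, it took rank 1047 from the lowest of 18538 genes at 1 dpi, rank 53 of 18443 at 2 dpi and rank 10 of 18525 at 3 dpi. Even against the lower parent, Sei-0, the 3 dpi values were 32 times lower in Fsc and 7.97 times lower in Fcs. From 1 to 3 dpi the FPKM + 1 declined 36.5 times in Fsc and 6.20 times in Fcs, against 1.42 times in Sei-0 and a gain of 1.24 times in Col-0.

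The stretch of 250 bases before the BSMT1 start (TAIR10.1, chr3:3614171-3614420, plus strand) is shown because BSMT1 is the gene with the widest difference. It holds no G-box and 2 copies of the shorter word ACGT, the core of the G-box, in capitals:
BSMT1: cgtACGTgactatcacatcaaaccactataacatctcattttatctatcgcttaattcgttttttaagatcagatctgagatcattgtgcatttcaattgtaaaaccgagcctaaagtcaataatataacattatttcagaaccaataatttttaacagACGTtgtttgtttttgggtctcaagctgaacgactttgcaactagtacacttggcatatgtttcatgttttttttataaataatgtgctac
ACGT stands in 44.2% of all promoters of this length and in those of 5 of the 8 genes, MYC2, MYC3, ANAC019, ANAC072 and BSMT1. The word CACG, counted with its reverse complement CGTG, stands in 45.6% of all and also in 5 of the 8. It is part of the G-box, so the G-box of ANAC019 counts in both.

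**Figure D2:**
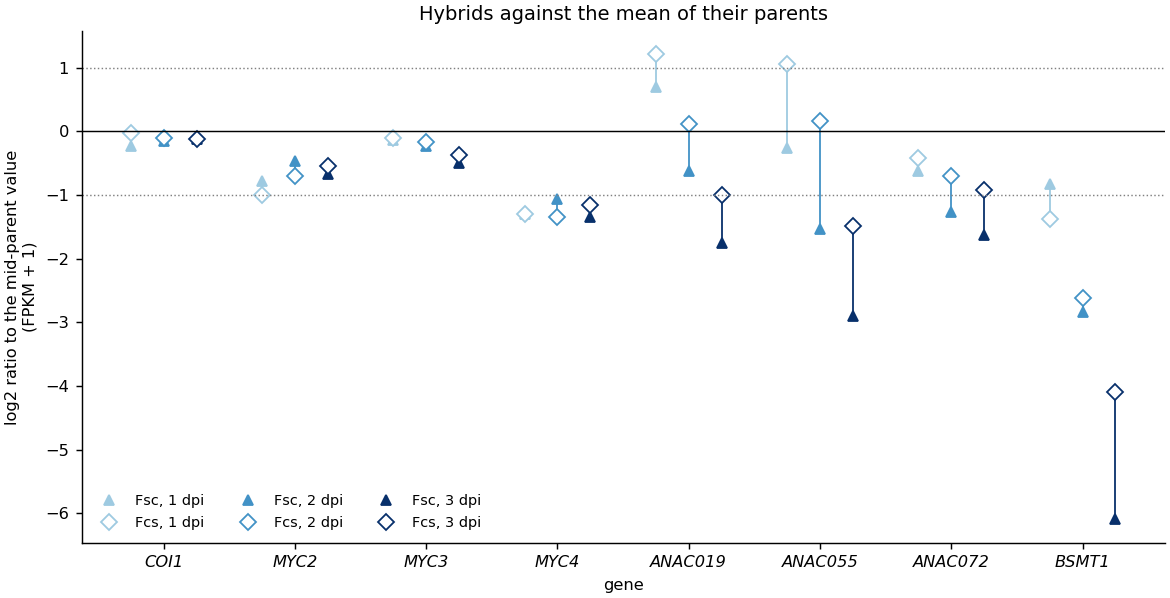
The log2 ratio of each hybrid to the mid-parent value, computed on FPKM + 1, for the 8 genes, with filled triangles for Fsc, open diamonds for Fcs and darker blue for later days; dotted lines mark 2-fold. COI1 stays near 0, and MYC3 goes down to -0.49 in Fsc and -0.37 in Fcs at 3 dpi. MYC4 lies past -1 on all days, the NAC genes move downwards from day to day, and BSMT1 reaches -6.10 in Fsc at 3 dpi.

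Counted over the 8 genes, none exceeded the mid-parent value 2-fold or more in both hybrids on any day, where 2.92% of all genes compared did at 1 dpi, 1.1% at 2 dpi and 2.18% at 3 dpi. At least 2-fold below it in both hybrids were 1 gene at 1 dpi (MYC4), 2 at 2 dpi (MYC4 and BSMT1) and 4 at 3 dpi (MYC4, ANAC019, ANAC055 and BSMT1). With 5 in place of 1 added to each FPKM, MYC4 at 2 dpi and MYC4 and ANAC019 at 3 dpi no longer passed, which left 1 and 2 genes. The shares of all genes compared were 5.14, 2.45 and 5.11%. With any size of difference counted, both hybrids were below both parents for 4 of the 8 at 1 dpi (COI1, MYC2, MYC4 and BSMT1), 5 at 2 dpi (these and MYC3) and all 8 at 3 dpi, against 25.6, 20.5 and 31.3% of all genes. Both hybrids were above both parents for 1 of the 8 at 1 dpi, ANAC019, and for none later, against 24.6, 18.8 and 30.3%. The median log2 ratio of the hybrids to the mid-parent value over the 8 genes was -0.33, -0.63 and -1.26 on the 3 days, and over all genes compared -0.02, -0.02 and -0.03.

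The parents differed at some of the same genes. ANAC055 and ANAC072 were at least 2-fold higher in Sei-0 than in Col-0 at 1 and 2 dpi, and no gene of the 8 was at 3 dpi, where 6.72, 5.54 and 4.54% of all genes were on the 3 days. BSMT1 was at least 2-fold lower in Sei-0 at 2 and 3 dpi, by 2.78 and 3.29 times, and no gene of the 8 at 1 dpi, against 8.21, 7.42 and 6.95% of all genes on the 3 days. The reciprocal hybrids were past 2-fold from each other in ANAC055 on all days and in BSMT1 at 3 dpi, where Fcs was 4.01 times Fsc, while 2.7, 2.62 and 2.63% of all genes were. Reads of all genotypes were aligned to the Col-0 reference, and whether Sei-0 alleles lost reads at these genes was not tested.

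ICS1 (AT1G74710), the described target of repression by the NAC factors, was set beside BSMT1. Its FPKM was 40.4 (Col-0), 165 (Sei-0), 245 (Fsc) and 288 (Fcs) on day 1, 2.38 (Fsc) and 2.79 (Fcs) times the mid-parent value. At 2 dpi it was 87.8, 146, 102 and 143, and at 3 dpi 53.3, 56.6, 22.3 and 34.1, with both hybrids lowest. The BSMT1 FPKM divided by the ICS1 FPKM, with nothing added, was 11 (Col-0), 1.44 (Sei-0), 0.781 (Fsc) and 0.452 (Fcs) on day 1. It was 9.14, 1.97, 0.735 and 0.610 at 2 dpi, and 10.4, 2.96, 0.192 and 0.591 at 3 dpi. Col-0 thus had a higher ratio than Sei-0 on each day, and both hybrids lay under 1 throughout.

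**Figure D3:**
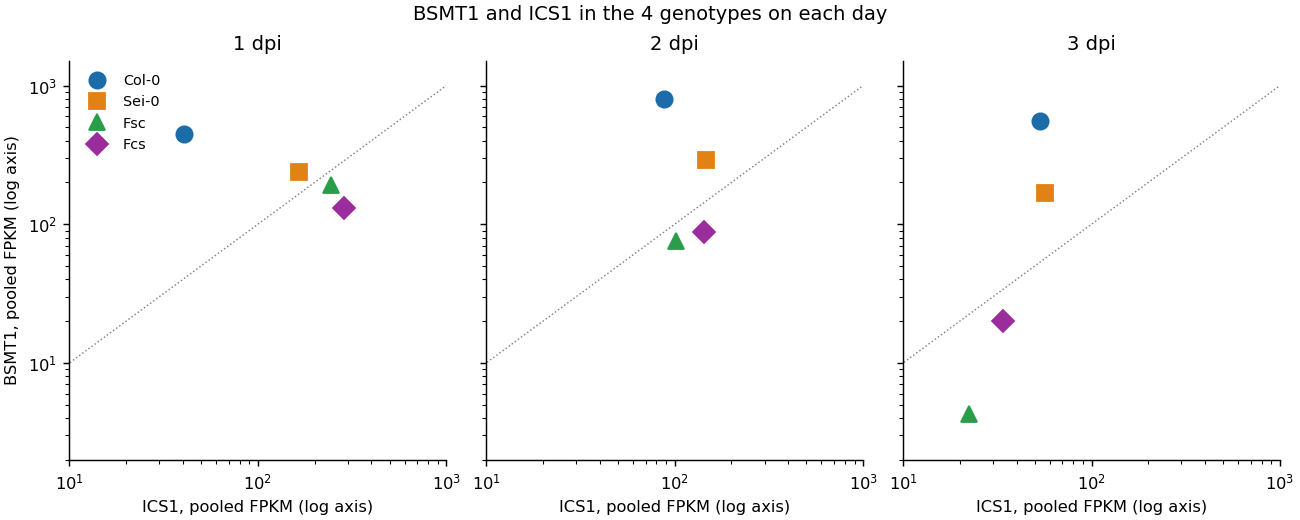
Pooled FPKM of BSMT1 against that of ICS1 (both log axes) on each day, with 1 point for each genotype; the dotted line marks equal levels. Both parents lie above the line on all days and both hybrids below it, with Col-0 at a ratio of 9.14 to 11.

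Other genes of SA turnover were mixed. Of all genes compared, 5.14, 2.45 and 5.11% were past 2-fold below the mid-parent value in both hybrids on the 3 days. Above it were 2.92, 1.1 and 2.18%, and these shares stand beside the counts of this and the following lists. Of 7 SA turnover genes compared, ICS1 and UGT76B1, which encodes a glucosyltransferase, were past 2-fold above the mid-parent value in both hybrids at 1 dpi. MES2, which encodes a methyl esterase of a family that releases SA from its methyl ester, was past 2-fold below it. MES2 had 26.2 (Fsc) and 19.1 (Fcs) FPKM beside 122 (Col-0) and 8.46 (Sei-0). None of the 7 passed at 2 dpi. At 3 dpi UGT76B1 was below the mid-parent value by 4.28 and 2.89 times in Fsc and Fcs, and MES9, also of the esterase family, by 5.18 and 2.22 times. Among the relatives of BSMT1 in the SABATH family of methyltransferases, JMT, which makes methyl jasmonate, had 110 FPKM (Col-0), 47.5 (Sei-0), 4.73 (Fsc) and 10.5 (Fcs) on day 3, 13.9 and 6.93 times below the mid-parent value. FAMT, the farnesoic acid methyltransferase gene, had 845 FPKM (Col-0), 226 (Sei-0), 174 (Fsc) and 192 (Fcs) on that day. This was 3.06 and 2.79 times below the mid-parent value in Fsc and Fcs, with both hybrids much nearer to Sei-0 than to Col-0. JMT and FAMT were the 2 of 4 SABATH genes past 2-fold at 3 dpi. All 3 compared were at 2 dpi (JMT, FAMT and the neighbour of FAMT, AT3G44870, whose reads may be shared with it), and 1 of 4 was at 1 dpi, IAMT1, with 1.95 FPKM or less in every group.

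The JAZ repressor genes are known to be induced by MYC factors in a feedback loop. Of 12 compared, 1 was past 2-fold below the mid-parent value in both hybrids at 1 dpi (JAZ6), 2 at 2 dpi (JAZ9 and JAZ10) and 5 at 3 dpi (JAZ5, JAZ7, JAZ8, JAZ10 and AT3G22275), and none was past 2-fold above it. JAZ1 went the other way at 1 dpi, 1.27 and 1.45 times the mid-parent value in Fsc and Fcs, and JAZ11 stood at 1.01 and 1.21 times on that day. JAZ10 had 333 FPKM (Col-0), 346 (Sei-0), 54.2 (Fsc) and 101 (Fcs) on day 3. JAZ8 had 68.8, 65.7, 7.11 and 24.1 on that day, and JAZ7 had 47.9, 54.0, 6.19 and 14.1. AT3G22275 was low, at 5.03, 0.688, 0.23 and 0.565, with Fcs close to Sei-0. Of 11 genes for the receptor complex and MYC partners, 1 passed at 1 dpi (the bHLH gene AT5G46830, annotated NIG1), on the lower side, and none later.

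Genes commonly used as outputs of the MYC branch of jasmonate signalling were also lower. Of 7, 4 were past 2-fold below the mid-parent value in both hybrids at 1 dpi and 6 at 2 and at 3 dpi. None was past 2-fold above it. THI2.1, a thionin gene, led at 1 dpi, with 38.5 FPKM in Sei-0 and 2.17, 5.21 and 2.64 in Col-0, Fsc and Fcs. Both hybrids thus lay above Col-0, and this call rested on the high Sei-0 value. The vegetative storage protein gene VSP2 had 800 FPKM (Col-0), 184 (Sei-0), 75.8 (Fsc) and 31.5 (Fcs) on day 2, and 1210, 439, 104 and 139 at 3 dpi. The tyrosine aminotransferase gene TAT3 was level at 1 dpi, 1.04 times the mid-parent value in both hybrids, and 7.53 and 5.74 times below it at 3 dpi. VSP1, next to VSP2 and close to it in sequence, was 8.03 and 4.31 times below it at 3 dpi, and JR1 and the cystine lyase gene CORI3 were past 2-fold on the same side at 2 and 3 dpi.

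The ERF branch, which MYC2 is known to oppose, was divided at the later days. Of 6 genes compared at 1 dpi, PDF1.2b and PDF1.2c were past 2-fold below the mid-parent value in both hybrids. PDF1.2 was under the mid-parent value too, by 2.32 times in Fsc and 1.79 times in Fcs. Of 7 compared later, 3 were past 2-fold above it at 2 dpi and 4 at 3 dpi, and none below. Those 4 were ORA59 and the 3 copies of PDF1.2. The other 3 genes lay under the mid-parent value in both hybrids at 3 dpi without passing in both: ERF1 by 2.01 and 1.2 times in Fsc and Fcs, and the PR genes PR4 by 1.57 and 1.4 times and PR3 by 2.82 and 1.52 times. ORA59, the ERF factor of this branch, had 0.775 FPKM (Col-0), 3.69 (Sei-0), 17.8 (Fsc) and 23.3 (Fcs) on day 3, 5.83 and 7.52 times the mid-parent value. The defensin gene PDF1.2 had 2.50, 168, 612 and 443 on that day. Its copies PDF1.2b (0.524, 0.487, 61.3 and 37.1) and PDF1.2c (0.759, 3.90, 160 and 63.4) are nearly the same in sequence, so the division of reads among the 3 is uncertain.

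Among 16 genes of jasmonate synthesis and turnover, none was past 2-fold in both hybrids at 1 dpi. At 2 and 3 dpi, 4 and 5 were past 2-fold below the mid-parent value in both hybrids. The leading genes encode steps that inactivate jasmonates: CYP94B3, a hydroxylase of jasmonoyl-isoleucine, had 71.3 FPKM (Col-0), 6.37 (Sei-0), 1.53 (Fsc) and 3.73 (Fcs) on day 3. ST2A, a sulfotransferase for hydroxyjasmonate, had 1360, 1450, 105 and 309, and CYP94B1 was 4.42 and 3.65 times below the mid-parent value. Genes of jasmonate synthesis passed as well: AOC1 at 2 dpi, and ACX1 and LOX3 at 3 dpi. In Fsc and Fcs, ACX1 was then 3.63 and 2.64 times below the mid-parent value, and LOX3 2.97 and 2.13 times. Of the abscisic acid and senescence genes, 14 were compared at 1 and 2 dpi and 13 at 3 dpi. ABF3 was past 2-fold below the mid-parent value in both hybrids at 1 dpi. RD29A, a desiccation-response gene, was past 2-fold above it at 2 dpi. At 3 dpi 6 were past 2-fold below it in both hybrids. Among them, HAI1, a phosphatase gene of abscisic acid signalling, was 8.57 and 5.55 times below it. The NAC gene NAP was 9.99 and 2.64 times below it. RD29A went the other way at 3 dpi, 11.4 and 4.68 times above the mid-parent value.

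**Figure D4:**
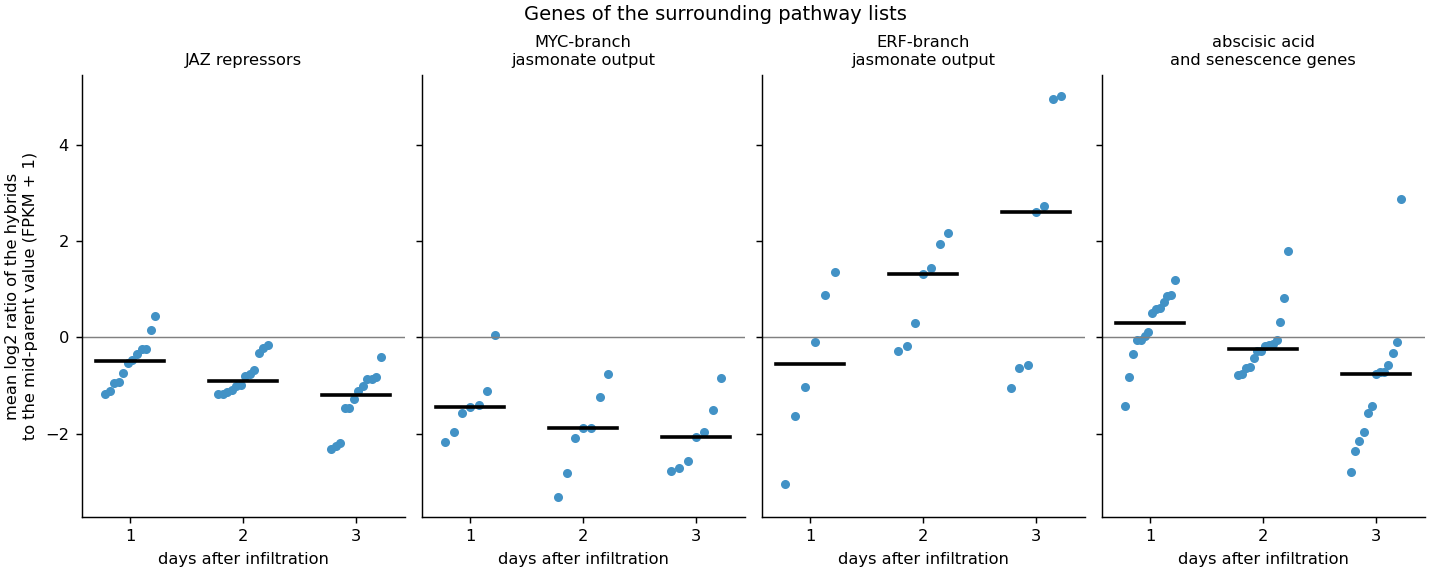
Mean log2 ratio of both hybrids to the mid-parent value (FPKM + 1) for every compared gene of 4 pathway lists on each day; points are genes and black bars are list medians. The JAZ and MYC-branch medians lie below 0 on all days and end at -1.19 and -2.06. The abscisic acid and senescence median goes from 0.31 to -0.76. The ERF-branch median goes from -0.56 over 6 genes to 2.59 over 7. It counts PDF1.2 and its near-identical copies PDF1.2b and PDF1.2c separately, while ERF1, PR3 and PR4 lie below 0 at 3 dpi.

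The 8 genes did not vary as one block across the 12 groups. With log2(FPKM + 1) centred within each day, Pearson's r was 0.89 between MYC2 and MYC4, 0.86 between MYC4 and BSMT1, 0.85 between ANAC019 and ANAC055 and 0.86 between ANAC055 and ANAC072. It was 0.00 between MYC2 and ANAC019 and 0.08 between MYC4 and ANAC055. MYC3 did not follow a division into MYC and NAC genes: its r was 0.84 with ANAC072, 0.74 with ANAC055 and 0.63 with ANAC019, against 0.59 with MYC2 and 0.64 with MYC4. MYC2 and ANAC072 had 0.55. BSMT1 stood at 0.58 with ANAC019, 0.40 with ANAC055 and 0.51 with ANAC072, below its values with MYC4 and with MYC2 (0.69). Without centring, BSMT1 had 0.80 with MYC4 and 0.53 with MYC2, against 0.51 with ANAC019, 0.29 with ANAC055 and 0.52 with ANAC072. Its values with MYC2, ANAC019 and ANAC072 were then nearly the same. These are descriptions over 12 pooled values that share their libraries, with no test of the differences. Among 13831 genes with at least 5 FPKM in some group of each day, those most like BSMT1 were AT5G65380 (0.986), JAZ5 (0.981) and TBL37 (0.980). ANAC055 was most like AT3G51660 (0.990), NAP (0.982) and SDP1 (0.982), and ANAC019 most like DELTA-OAT (0.992), AT1G10410 (0.990) and AT2G01460 (0.982). ANAC072 was most like ABCB1 (0.995), AT3G06670 (0.989) and MYB7 (0.985). The nearest genes to MYC4 were TRY (0.992), AT3G10260 (0.988) and UGT78D2 (0.985), those to MYC2 were GSTU5 (0.982), STE1 (0.980) and PAO3 (0.976), and those to MYC3 were AT3G03790 (0.984), MEE32 (0.981) and SULTR4;1 (0.970). COI1, with its narrow range, was most like HB-2 (0.967), AT3G06760 (0.948) and AT4G21110 (0.940).

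Other measures moved with the genotypes. Of 8 clock genes, CCA1 and LHY, which peak in the morning, were past 2-fold below the mid-parent value in both hybrids on all days. PRR9 joined them at 2 and 3 dpi. PRR5, TOC1 and LUX were past 2-fold above that value in both hybrids on all days. CCA1 had 115 FPKM (Col-0), 54.3 (Sei-0), 6.73 (Fsc) and 15.6 (Fcs) on day 1, and 62.3, 22.0, 1.1 and 7.16 at 3 dpi. The summed FPKM of 3 mesophyll markers was 23800 (Col-0), 12000 (Sei-0), 8470 (Fsc) and 5970 (Fcs) on day 1, and 10900, 9240, 15000 and 13300 at 3 dpi. Of those markers, LHCB1.1 and CA1 were past 2-fold below the mid-parent value at 1 dpi, LHCB1.1 alone at 2 dpi and none at 3 dpi. The 3 did not move together: at 2 dpi CA1 was 3.6 and 1.56 times the mid-parent value in Fsc and Fcs, and at 3 dpi RBCS1A made up most of the sum and was 1.69 and 1.4 times it, while LHCB1.1 was 5.61 times below it in Fsc. The summed FPKM of 3 guard cell markers was 33.5, 21.5, 41.3 and 33.1 at 1 dpi and 51.5, 47.1, 33.4 and 32 at 3 dpi, where 1 of them, the channel gene KAT1, was past 2-fold below the mid-parent value in both hybrids (2.38 and 2.08 times). The other 2 were above it on that day, FAMA at 1.4 and 1.04 times and MYB60 at 1.35 and 1.26 times, so the lower sum was that of KAT1. The summed vascular markers had 66.7 to 136 FPKM in the 12 groups, and those of the epidermis and of dividing cells had 11.2 or less. Of these, 2 of 3 vascular and 1 of 2 epidermal markers were high enough to compare on each day, and of the 3 dividing-cell markers 1 at 1 dpi and none later. None of those compared passed 2-fold in both hybrids. The part of the clock, of the guard cell and of the mesophyll genes in the results above was not tested.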

How the data were processed

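The libraries were sequenced on an Illumina HiSeq instrument. The authors mapped reads to TAIR10 with TopHat (the submitters' notes name Bowtie), assembled and merged transcripts with Cufflinks and Cuffmerge, and deposited FPKM from Cuffdiff, run with a Poisson fragment distribution, as 1 pooled value per gene and group in 3 tables, 1 for each day. Versions are not given in the sources used here. The tables also hold the authors' own fold changes, statistics, p-values and q-values for 6 comparisons a day, which were not used. The study's supplement states an aligned amount for each library, which was not used here, since the pooled FPKM do not give counts or the spread between libraries. The supplement also lists correlations between the libraries of each group, of which the lowest was in Sei-0 at 3 dpi. No interval, standard deviation or test was therefore computed.

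From the deposited FPKM, fold differences between groups were taken on FPKM + 1, and ratios of highest to lowest level, of BSMT1 to ICS1 and shares of a sum on FPKM itself, with Python 3.11.15, NumPy 2.4.6 and pandas 2.3.3. A gene was compared where at least 1 of the 4 groups of a day had 1 FPKM, and called at 2-fold. No member was lost to this filter. Mean log2 ratios average Fsc and Fcs. Groups came from the sample labels. The calling was checked on simulated data. The members and the 16 lists (119 genes) were chosen with earlier results of these data known. From each list up to 3 genes were named on each day, those with the largest mean log2 ratio past the threshold in both hybrids; ICS1 and, for each member, the 3 genes of highest r were named too, and further list members are named to complete small counts. Gene symbols and promoters came from RefSeq TAIR10.1, which listed 32810 of the 33557 identifiers. All 26687 genes compared overlapped their deposited place, but only 3742 had the same start and end. Promoter windows and G-box distances were taken from the RefSeq starts, and would shift with the deposited ones. Alternatives were another fold, pseudocount, filter, scaling and parental reference.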

Additional observations from a re-analysis of the deposited data

Results flagged for a closer look

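ANAC019 differed from the mid-parent value in opposite directions on the first and the last day. The mean log2 ratio of both hybrids was 0.96 at 1 dpi and -1.38 at 3 dpi, with both hybrids above both parents on the first day (285 and 408 FPKM in Fsc and Fcs against 151 and 200 in Col-0 and Sei-0) and below both on the last (127 and 215 against 444 and 420). The difference between the days was not tested, since each group had 1 pooled value.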

How the results depend on the processing

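The 15 counts of members kept within 1.5 times of their value in 98 of 117 alternatives. At a fold of 1.5 the count above the mid-parent value was 1 at 1 dpi, that below it 3 at 1 dpi, those lower in Sei-0 1, 2 and 2 on the 3 days, those higher in Sei-0 2 at 3 dpi, and those between Fsc and Fcs 2 and 4 at 2 and 3 dpi. At a fold of 3 the counts below the mid-parent value were 0, 1 and 1, those between the hybrids 0 at 1 dpi and 1 at 3 dpi, and those higher and lower in Sei-0 at 2 dpi 0 each. With a pseudocount of 5, 1 and 2 genes were below the mid-parent value at 2 and 3 dpi, and with the lower parent as the reference also 1 and 2. No call turned in direction. Against the outer parent, the mean log2 ratio was 0.11 for MYC3, -0.40 for ANAC055 and 0.53 for ANAC072 at 1 dpi, and 0.26 for ANAC055 at 2 dpi, each opposite in sign to that against the mid-parent value. Scaling the groups to 1 median over genes moved no change from 1 to 3 dpi by 1.5 times. The median r over the 3 pairs of NAC genes was 0.85, against 0.81 by Spearman's rho and 0.76 without centring. Leaving out a library was not possible, and no paired analysis was possible, because the deposited values are pooled over the 3 libraries of a group. Levels near 1 FPKM limit the ratios of low genes.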
